A study of Mus musculus with 6 samples.

Results

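The genes described here build the presynaptic ribbon of photoreceptors, the calcium channel complex beside it and the vesicles it releases. They were chosen by name, as Ctbp2, Bsn, Pclo, Cacna1f, Cacnb2, Cacna2d4, Cabp4, Rims2, Slc17a7 and Syp. Of these 10 genes, 8 could be measured, out of 9720 genes in the series, and Cacna1f and Cacnb2 had no value to analyse. RNA came from cones of adult C57BL/6 mice of mixed background that were sorted by FACS for eGFP from dissociated neural retinas. Knockout animals had the genotype HRGPcre;Bmal1f/f;Z/EG (3 libraries), and controls had HRGPcre;Bmal1f/+;Z/EG (3 libraries). All animals thus carried HRGPcre, a Cre transgene driven by the human red-green pigment promoter that is active in cones, and Z/EG, a reporter that expresses eGFP once Cre has acted. A control cone is heterozygous for Bmal1 after recombination, although the series text calls the controls wild type. The labels give the age as postnatal days 60 to 80 and also as 2 to 6 months, and the light cycle was 12 h on and 12 h off. The labels used here give neither the number of animals per library nor the hour of collection. P-values therefore rest on the spread between these libraries, which may be in part technical. In limma they rest also on variance shared across genes.

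Cones release glutamate continuously in darkness and slow this release in light. The ribbon is an electron-dense plate that tethers vesicles next to L-type calcium channels, so that release follows the membrane potential closely. RIBEYE, made from Ctbp2, is the main ribbon protein, and bassoon anchors the ribbon to the release site. The channel of photoreceptors consists of a pore subunit (Cacna1f), a beta subunit (Cacnb2) and an alpha2delta subunit (Cacna2d4), and it is tuned by the calcium sensor CaBP4. Loss of several of these genes causes congenital stationary night blindness or cone dysfunction in people. Rods use the same machinery, so these genes do not separate cones from rods.

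Values are FPKM, which divide fragments by transcript length and library size, so levels of different genes can be compared per length. Their sums ranged from 84995 to 128773 per library, and these sums say nothing of read depth, which is unknown. Arntl, which encodes BMAL1, did not check the genotype. It measured 3.05 ± 0.66 FPKM in knockout and 2.96 ± 0.34 FPKM in control (SD, n = 3 each), and the deposited value is 1 per gene, not specific to the deleted part. All 10 cone markers were measured, and their summed level ran from 5523 to 6666 FPKM in knockout and from 4108 to 6923 FPKM in control. The leading cone marker Opn1sw, the S-opsin gene, averaged 1947 ± 160.3 FPKM in knockout and 980.8 ± 234.6 FPKM in control (SD, n = 3 each), with groups apart and an adjusted p of 0.65 (limma). The second, Gngt2, a cone transducin subunit gene, averaged 1002 ± 161.6 FPKM in knockout and 1211 ± 488.9 FPKM in control, with overlapping groups. The 14 rod markers, all measured, summed to 2569 to 3624 FPKM in knockout and 3013 to 3692 FPKM in control. For bipolar cells, which have ribbons of their own, 11 of 14 markers were measured and summed to 117.5 to 128.3 FPKM in knockout and 109.4 to 158.0 FPKM in control. The defining bipolar genes Grm6, Nyx and Gpr179 had no FPKM value to analyse. Otx2 and Lrtm1 led that list, and Otx2 is also a photoreceptor gene. Of 9 ganglion cell markers 4 were measured, and they summed to 2.66 to 3.30 FPKM in knockout and to 24.75, 4.19 and 3.58 FPKM in controls 1, 2 and 3, so control 1 stood apart. Of 9 Muller glia markers 6 were measured. They summed to 98.9 to 109.9 FPKM in knockout and to 89.8 to 117.4 FPKM in control. Clu, 1 of these, had groups apart, with means of 18.6 FPKM in knockout and 26.0 FPKM in control, whereas those of Car2 overlapped. Of 10 amacrine cell markers 1 was measured, and of 6 horizontal cell markers 2. No marker of these lists passed the test between the groups. RNA of the rod markers, led by Pde6g and Sag, was thus present in every library. How far it came from rods, and the part of rod RNA in the values below, was not tested.

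Knockout and control cones were compared gene by gene with limma on log2(FPKM + 1), with p-values adjusted over all 8627 tested genes. None of the 8 ribbon and calcium channel genes passed an adjusted p of 0.05, with adjusted p from 0.93 to 0.9996, and none had an unadjusted p under 0.05. Across all tested genes 9 passed (0.104%), 0.0464% of genes being higher and 0.058% lower in knockout, and 5.49% had an unadjusted p under 0.05. Estimates were positive for 5 of the 8 genes and negative for 3, from -0.67 for Syp to 0.44 for Cabp4. Their median log2 difference was 0.14, against -0.02 over all tested genes. The 3 knockout values lay wholly above the 3 control values for Pclo and Rims2, and for the other 6 genes the groups overlapped. Of all tested genes, 9.39% had groups without overlap in either direction, with 3.52% wholly above and 5.87% wholly below the control. In bulk libraries like these, fewer cells of a type and less RNA per cell cannot be told apart. All 8 genes exceeded the filter of a mean of 1 FPKM. Without control 1 the estimates were -0.25 for Ctbp2, 0.14 for Bsn, 0.37 for Pclo, 0.22 for Rims2, 0.07 for Cacna2d4, 0.06 for Cabp4, -0.33 for Slc17a7 and -0.98 for Syp, and none passed.

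**Figure D1:**
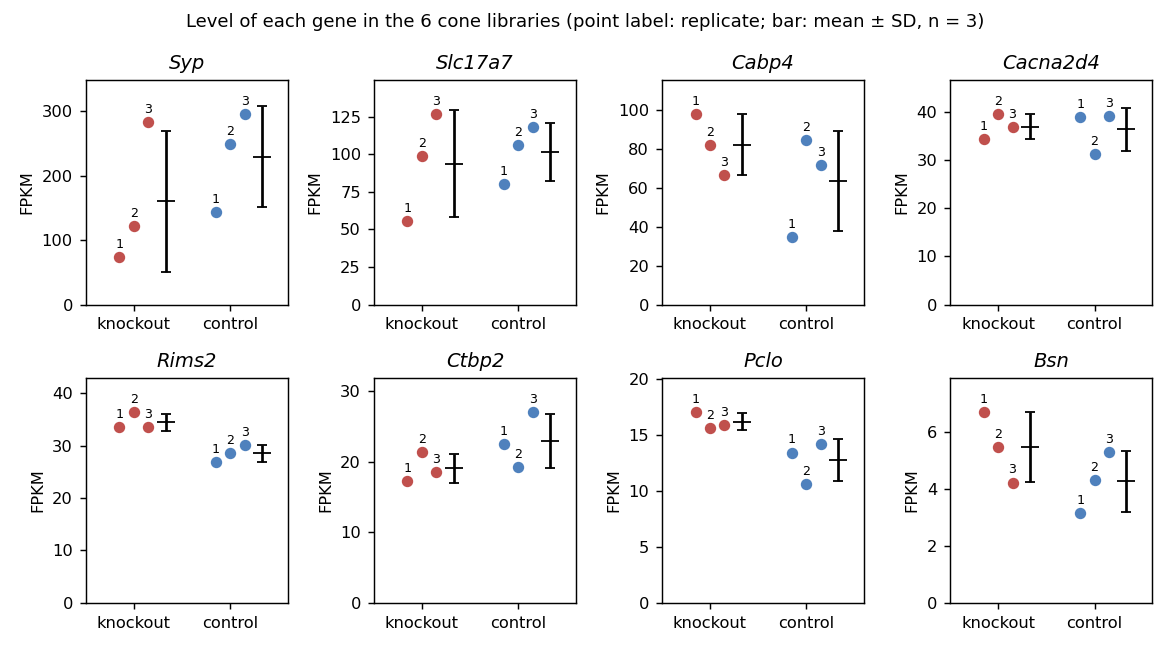
FPKM (vertical axes, linear, from 0) of the 8 measured genes in the 3 knockout and 3 control cone libraries, with the replicate number at each point and the mean ± SD beside each group. The groups stand apart for Rims2 and Pclo, whereas Syp spreads from 74.4 to 283.8 FPKM within the knockout group alone.

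Ctbp2 encodes both the transcriptional corepressor CtBP2 and, from a start site of its own, the ribbon protein RIBEYE, whose A domain is found in no other protein. It is at chromosome 7, 132987563 to 133124354, minus strand (GRCm38, ENSMUSG00000030970.16). RefSeq (GRCm38.p6) gives it 2 start sites that lie 66613 bp apart. The downstream one is 1 bp from the start of the GENCODE transcript that encodes 988 residues, the RIBEYE form. The GENCODE coding transcript that starts nearest to the upstream one begins 29931 bp from it. Both windows are shown because Ctbp2 has 1 deposited value for all its forms. They run from 250 bases before to 50 after each start, with chr7:133015198-133015497 for the RIBEYE start and chr7:133081811-133082110 for the upstream one, both read on the minus strand. Capitals mark TAATCC, the core of the site bound by the photoreceptor factor CRX, here read on the opposite strand as GGATTA.
Ctbp2 RIBEYE start: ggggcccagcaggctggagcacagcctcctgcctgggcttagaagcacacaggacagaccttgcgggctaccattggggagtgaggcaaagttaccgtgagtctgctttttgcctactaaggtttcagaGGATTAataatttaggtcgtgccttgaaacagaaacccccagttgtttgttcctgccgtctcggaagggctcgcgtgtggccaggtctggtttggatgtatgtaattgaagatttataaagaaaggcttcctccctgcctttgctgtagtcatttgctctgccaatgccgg
Ctbp2 upstream start: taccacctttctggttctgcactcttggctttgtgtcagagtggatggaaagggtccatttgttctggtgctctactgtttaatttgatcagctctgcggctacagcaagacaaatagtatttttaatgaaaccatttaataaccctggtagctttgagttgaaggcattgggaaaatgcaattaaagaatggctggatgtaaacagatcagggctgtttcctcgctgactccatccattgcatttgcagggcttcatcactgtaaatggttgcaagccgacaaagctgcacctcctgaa
The RIBEYE window held 1 such match, 121 bases before the start, and the upstream window held none. Searched on both strands, TAATCC occurred in 7.06% of 32851 mouse promoter windows of this length. A match describes letters only, and binding was not measured.

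Ctbp2 measured 17.3, 21.3 and 18.6 FPKM in knockout cones, against 22.5, 19.3 and 27.0 FPKM in control cones. The groups overlapped, with knockout 2 above control 2. The means were 19.1 ± 2.06 FPKM in knockout and 22.9 ± 3.86 FPKM in control, a difference of -16.8% (SD, n = 3 each). In limma the log2 difference was -0.25 ± 0.23 (SE), with a 95% interval from -0.74 to 0.25 and an adjusted p of 0.98. It was -0.13 without control 3, -0.14 with array weights and -0.16 with a correction for GC content and transcript length. Since RIBEYE and CtBP2 share the exons of the B domain and the table gives 1 value per gene, it cannot show whether the balance between the forms differed. Exons of Ctbp2 overlap those of Fgfr2 by 314 bp on the same strand.

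Bsn encodes bassoon, the giant scaffold that holds the ribbon at the release site. Located on chromosome 9 from 108096022 to 108190384, minus strand, it had the lowest level of the 8 genes in both groups. It measured 6.68, 5.45 and 4.22 FPKM in knockout, against 3.14, 4.32 and 5.30 FPKM in control. Knockout 3 fell below controls 2 and 3, so the ranges overlapped. Means were 5.45 ± 1.23 FPKM in knockout and 4.26 ± 1.08 FPKM in control, and the log2 difference was 0.30 ± 0.24 (interval from -0.22 to 0.82, adjusted p = 0.96, limma). The estimate was 0.14 without control 1, 0.16 without knockout 1 and 0.18 with the rod markers as a covariate.

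Pclo encodes piccolo, a scaffold related to bassoon, of which a short form, piccolino, prevails at ribbon synapses. Its gene spans chromosome 5 from 14514918 to 14863459 on the plus strand, and its longest coding transcript of 20084 bp is the longest of the 8. Pclo measured 17.0, 15.6 and 15.9 FPKM in knockout cones, against 13.4, 10.6 and 14.2 FPKM in control cones. All knockout values lay above all control values. The means were 16.1 ± 0.74 FPKM in knockout and 12.7 ± 1.87 FPKM in control, 26.7% higher in knockout, and the gene did not pass the test (log2 difference 0.33 ± 0.22, interval from -0.14 to 0.80, adjusted p = 0.93, limma). The estimate was 0.18 after the same correction and 0.21 without control 2. Exons of Pclo overlap gene models on the opposite strand by 925 bp, and those of Bsn overlap one on the same strand by 57 bp.

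Rims2 encodes RIM2, which links vesicles and calcium channels at the active zone and supports channel opening in photoreceptors. It is at chromosome 15, 39198261 to 39684372, plus strand. In knockout cones it measured 33.6, 36.3 and 33.5 FPKM, against 26.8, 28.6 and 30.1 FPKM in control cones. Its groups were apart, and its spread was narrow, with a coefficient of variation of 4.69% in knockout and of 5.74% in control. No other of the 8 genes varied less in control. Means of 34.5 ± 1.62 FPKM in knockout and 28.5 ± 1.64 FPKM in control gave a difference of 20.9%. With the variance shared across genes, limma gave a log2 difference of 0.27 ± 0.21, an interval from -0.20 to 0.73 and an adjusted p of 0.96.

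Of the calcium channel genes, Cacna2d4 encodes the alpha2delta-4 subunit, which brings the channel to the photoreceptor terminal. It is at chromosome 6, 119236526 to 119352407, plus strand. Its level was 34.4, 39.6 and 36.9 FPKM in knockout, against 38.9, 31.3 and 39.2 FPKM in control. The group ranges covered each other, and the means were 37.0 ± 2.62 FPKM in knockout and 36.5 ± 4.45 FPKM in control. The log2 difference was 0.02 ± 0.22 with an interval from -0.46 to 0.51 (adjusted p = 0.9996, limma), and its sign turned under quantile normalization. The interval allows a level between 0.725 and 1.43 times that of control on the FPKM + 1 scale, so it does not show that the groups were alike.

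Cabp4 encodes CaBP4, a neuronal calcium-binding protein that lets the channel open at more negative potentials. Its gene spans chromosome 19 from 4135423 to 4144033 on the minus strand, and its exons overlap those of Gpr152 by 131 bp on the opposite strand. Cabp4 measured 98.0, 81.9 and 66.8 FPKM in knockout, against 34.7, 84.4 and 71.7 FPKM in control. Control 1 was far below the other 5 libraries, and the remaining values overlapped. Means were 82.2 ± 15.6 FPKM in knockout and 63.6 ± 25.8 FPKM in control, with a log2 difference of 0.44 ± 0.33 (interval from -0.27 to 1.15, adjusted p = 0.95, limma). The estimate was 0.06 without control 1, 0.69 without control 2, 0.12 with array weights and 0.23 with the rod covariate. Control 1 also had the lowest FPKM sum of the series, the lowest summed cone markers and the highest summed ganglion cell markers, and the part of these in its Cabp4 value was not tested.

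Slc17a7 encodes VGLUT1, which loads photoreceptor vesicles with glutamate. It is at chromosome 7, 45163949 to 45176142, plus strand. In knockout cones it measured 55.9, 98.7 and 126.9 FPKM, against 80.3, 106.3 and 117.9 FPKM in control cones. The knockout group held both the lowest and the highest value of the 6 libraries. Means were 93.8 ± 35.7 FPKM in knockout and 101.5 ± 19.3 FPKM in control (log2 difference -0.17 ± 0.32, interval from -0.86 to 0.52, adjusted p = 0.9996, limma). The estimate turned to 0.16 without knockout 1, and it was -0.43 without knockout 3, -0.06 without control 3, -0.35 with the rod covariate and -0.05 with the correction for GC content and length.

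Syp encodes synaptophysin, an abundant membrane protein of synaptic vesicles. It is at chromosome X, 7638471 to 7653256, plus strand, with 875 bp of exon overlap with a gene model on the opposite strand. Its promoter window held the other TAATCC match among the 6 windows available for 5 of the 8 genes. This window lies at chrX:7638330-7638629 on the plus strand, and the match is 246 bases before the start. Cplx3, which encodes complexin 3 and is the clock target named in the series title, is shown beside it. Its window (chr9:57606232-57606531, minus strand) held 2 copies of CACGTG, the E-box to which BMAL1 binds with its partner CLOCK. Capitals mark GGATTA in Syp and CACGTG in Cplx3.
Syp: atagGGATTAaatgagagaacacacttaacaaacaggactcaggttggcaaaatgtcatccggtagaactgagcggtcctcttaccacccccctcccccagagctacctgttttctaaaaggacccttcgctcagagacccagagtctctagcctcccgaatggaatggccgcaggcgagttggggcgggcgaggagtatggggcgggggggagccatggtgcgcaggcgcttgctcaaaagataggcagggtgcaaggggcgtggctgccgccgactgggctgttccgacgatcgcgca
Cplx3: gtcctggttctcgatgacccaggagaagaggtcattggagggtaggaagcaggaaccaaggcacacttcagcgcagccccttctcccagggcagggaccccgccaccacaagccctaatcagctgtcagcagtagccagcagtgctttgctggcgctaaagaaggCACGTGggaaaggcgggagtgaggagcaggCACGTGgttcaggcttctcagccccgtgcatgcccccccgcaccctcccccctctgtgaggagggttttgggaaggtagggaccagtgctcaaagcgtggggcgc
The E-box matches of Cplx3 lie 85 and 55 bases before its start. CACGTG was in none of the 6 windows of Ctbp2, Bsn, Pclo, Slc17a7 and Syp and in 7.15% of all windows. The looser form CANNTG, which includes CACGTG, was in 5 of the 6, all but that of Syp, and in 72.3% of all. No match says only that these letters are not in these windows.

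Syp measured 74.4, 122 and 283.8 FPKM in knockout, against 143, 249.85 and 295.9 FPKM in control. Knockouts 1 and 2 were the lowest of the 6 libraries, while knockout 3 exceeded controls 1 and 2. Means of 160.2 ± 109.7 FPKM in knockout and 229.6 ± 78.4 FPKM in control differed by -30.2%. This was the largest estimate among the 8 genes (log2 difference -0.67 ± 0.44), and its interval from -1.63 to 0.28 was the widest (adjusted p = 0.93, limma). Summed rod markers were 2569, 3089 and 3624 FPKM in knockouts 1 to 3. They were 3013, 3321 and 3692 FPKM in controls 1 to 3. Control 1 was below knockout 2 in these sums but above it in Syp, and otherwise the 6 libraries ranked alike in both. The leading rod marker Pde6g measured 398, 702 and 928 FPKM in knockout, against 718, 879 and 937 FPKM in control. It ranked the 6 libraries in the same order as Syp. Sag, the next, measured 724, 620 and 804 FPKM in knockout, against 523, 680 and 855 FPKM in control, which is a different order. The third of genes with the highest GC content, above 52.6%, holds Syp at 56.6%, Slc17a7 at 58.5%, Bsn at 59.8%, Ctbp2 at 55.0% and Cabp4 at 53.0%. Its median log2 difference from the mean of the 6 libraries was -0.134, -0.131 and 0.0563 in knockouts 1, 2 and 3, against -0.145, 0.0888 and 0.243 in controls 1, 2 and 3. Over all tested genes that median was -0.0309, -0.0421 and 0.0451 in knockouts 1, 2 and 3. In controls 1, 2 and 3 it was -0.156, -0.0197 and 0.189, so part of these shifts was shared by whole libraries. With the rod markers as a covariate the Syp estimate was -1.06, with the correction for GC content and length it was -0.57, without knockout 1 it was -0.23 and without knockout 3 it was -1.19. None of these passed, and the part of rod RNA and of GC content in the Syp values was not tested beyond these fits.

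**Figure D2:**
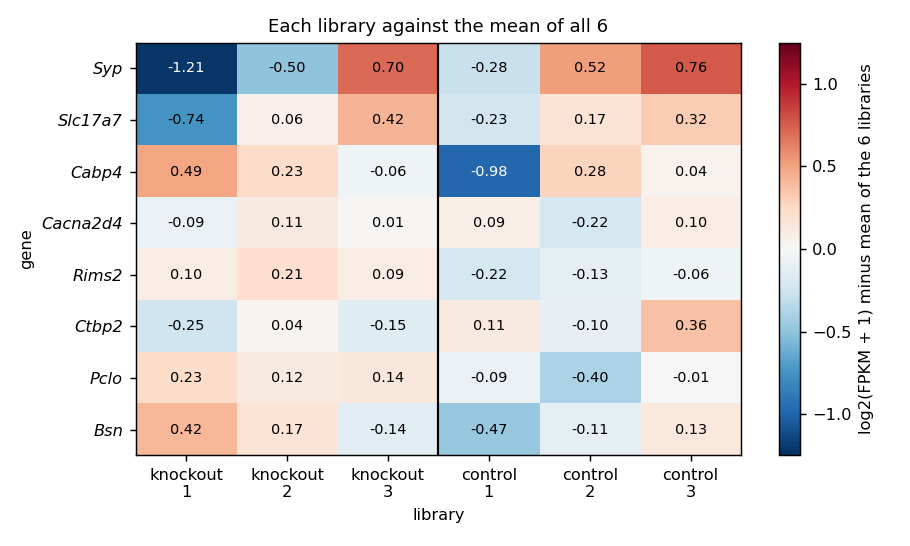
Difference of each library (columns, 3 knockout and 3 control) from the mean of the 6 libraries, on the log2(FPKM + 1) scale, for the 8 genes (rows). Syp spans -1.21 in knockout 1 to 0.76 in control 3, while the knockout values of Rims2 and Pclo are all positive and their control values all negative.

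In knockout cones the order of levels was Syp, Slc17a7, Cabp4, Cacna2d4, Rims2, Ctbp2, Pclo and Bsn, and the order was the same in control cones. Ranges of Syp and Slc17a7 overlapped in knockout but not in control, and those of Slc17a7 and Cabp4 overlapped in both groups. Cabp4 and Cacna2d4 were apart in knockout and overlapped in control. In knockout Cacna2d4 and Rims2 overlapped, in control Rims2 and Ctbp2 did, and Ctbp2, Pclo and Bsn were apart from one another in both groups. Among all 9720 genes, Syp stood at percentile 99.4 in knockout and 99.7 in control, whereas Bsn stood at 62.2 in knockout and 53.0 in control. Per length, the mean levels of both vesicle genes and of the calcium sensor gene were thus above those of all 4 scaffold genes. Longest coding transcripts ran from 1433 bp for Cabp4 to 20084 bp for Pclo, and the part of length in this order was not tested. The order of the means did not hold in every library: in knockout 1, Cabp4 at 98.0 FPKM was above Syp at 74.4 and Slc17a7 at 55.9 FPKM. Within knockout the coefficient of variation was 68.5% for Syp, 38.1% for Slc17a7, 4.58% for Pclo and 22.6% for Bsn.

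Ratios of 2 genes within a library do not depend on how libraries are scaled. The 4 ratios that could be formed were compared by an exact two-sided permutation test, which cannot go below p = 0.10 with 3 against 3 libraries, and p was adjusted over the 4. Ctbp2 per Bsn was 2.59, 3.91 and 4.40 in knockout, against 7.14, 4.45 and 5.08 in control. Every knockout ratio was below every control ratio, with a log2 difference of -0.62 ± 0.31 (SE; exact p = 0.10, adjusted 0.40). Slc17a7 per Syp was 0.752, 0.805 and 0.447 in knockout, against 0.561, 0.426 and 0.399 in control (log2 difference 0.50 ± 0.31, exact p = 0.20, adjusted 0.40). Bsn per Pclo averaged 0.336 ± 0.065 in knockout and 0.338 ± 0.091 in control (SD, n = 3 each, exact p = 1). Rims2 per Bsn averaged 6.54 ± 1.46 in knockout and 6.94 ± 1.46 in control (SD, n = 3 each, exact p = 0.80). The 3 planned ratios to Cacna1f were not computed.

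The change of Cplx3, another gene of the ribbon terminal, gives a scale for these intervals. Cplx3 measured 4.42, 4.29 and 5.76 FPKM in knockout, against 18.5, 24.7 and 21.0 FPKM in control, with a log2 difference of -1.94 and an interval from -2.43 to -1.46 (adjusted p = 0.0018, limma). That estimate lay outside the unadjusted 95% interval of each of the 8 genes. The nearest bound was -1.63 for Syp, followed by -0.86 for Slc17a7 and -0.74 for Ctbp2. The difference between Cplx3 and each of the 8 genes was not itself tested.

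**Figure D3:**
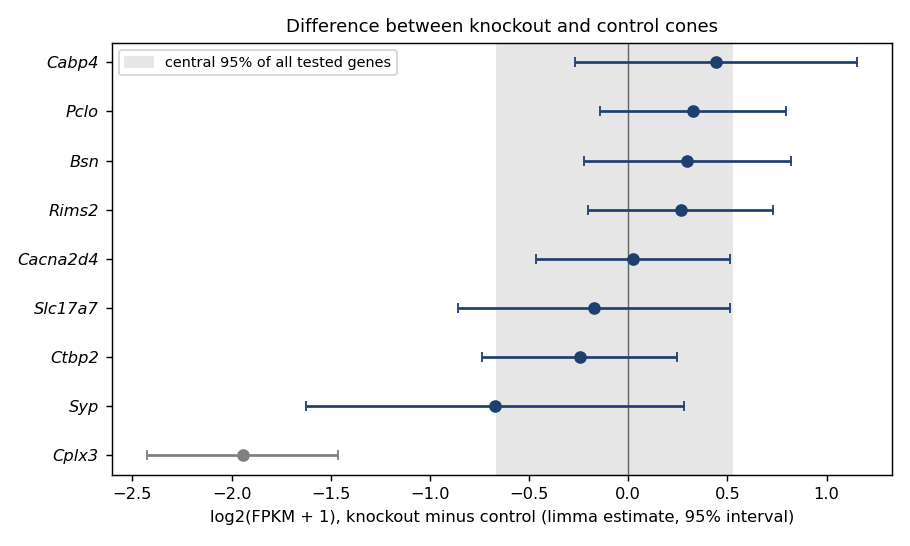
Limma estimates with 95% intervals of the log2(FPKM + 1) difference, knockout minus control (horizontal axis), for the 8 genes and for Cplx3, with the central 95% of all tested genes in grey. All 8 intervals cross 0 and end to the right of the Cplx3 estimate of -1.94.

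The other genes of the terminal were read from 5 lists. Named are each list's 2 genes of smallest p and its most abundant gene. Groups apart among these follow in part from that choice. Among 9 active zone genes knockout lay wholly above control for 1 and wholly below for 1, as among 15 vesicle genes. Of 6 calcium channel and sensor genes 1 lay below and 0 above, as of 4 paralogs. Of 10 cleft genes 1 lay above and 0 below. Over all tested genes 3.52% lay above and 5.87% below. Of 9 tested genes of the active zone and of vesicle priming none passed, 3 estimates being positive and 6 negative, with a median of -0.10. Ctbp1, the paralog of Ctbp2, measured 2.84, 2.78 and 4.66 FPKM in knockout, against 5.92, 4.95 and 5.73 FPKM in control. Its groups were apart, and its log2 difference was -0.59 ± 0.23 (adjusted p = 0.87, limma). Ppfia2, which encodes the active zone organizer liprin alpha 2, measured 23.4, 18.3 and 18.2 FPKM in knockout, against 11.1, 12.3 and 17.1 FPKM in control (log2 difference 0.54 ± 0.24, adjusted p = 0.90, limma). Here too the knockout values were all on 1 side, above the controls. Unc119, a lipid-binding trafficking protein gene of photoreceptors and the most abundant of the list, averaged 132 ± 21.2 FPKM in knockout and 143 ± 32.5 FPKM in control.

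Of the other calcium channel and sensor genes 6 were tested and none passed, with 0 positive and 6 negative estimates and a median of -0.40. The sign of 2 of these, Calm2 and Cabp5, turned when libraries were rescaled. Cacna1h, which encodes a T-type channel, measured 7.69, 5.93 and 6.67 FPKM in knockout, against 9.87, 8.14 and 13.8 FPKM in control. The groups did not overlap (log2 difference -0.56 ± 0.24, adjusted p = 0.90, limma). Calm3, a calmodulin gene, averaged 12.3 ± 3.58 FPKM in knockout and 17.6 ± 2.097 FPKM in control, and Calm2, which encodes the same protein, 121.8 ± 13.5 FPKM in knockout and 125.8 ± 32.03 FPKM in control. Neither passed (adjusted p = 0.90 and 0.9996, limma).

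Of 15 synaptic vesicle genes tested none passed, 5 being positive and 10 negative, with a median of -0.11. Sv2b, a vesicle glycoprotein gene and the most abundant of the list, measured 358, 428 and 234 FPKM in knockout, against 181, 188 and 204 FPKM in control. Its paralog Sv2a measured 2.79, 2.38 and 4.22 FPKM in knockout, against 4.37, 4.98 and 5.41 FPKM in control. Both had groups without overlap, Sv2b above and Sv2a below control, and neither passed (log2 difference 0.79 ± 0.29 and -0.54 ± 0.23, adjusted p = 0.81 and 0.90, limma). Sv2b exceeded Syp in knockouts 1 and 2 and in control 1, whereas Syp was the higher of the pair in knockout 3 and in controls 2 and 3.

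Of 10 synaptic cleft and trans-synaptic genes tested none passed, with 5 positive and 5 negative and a median of -0.03. Lrit2, a leucine-rich repeat gene, measured 31.6, 22.1 and 29.4 FPKM in knockout, against 13.0, 15.5 and 19.6 FPKM in control (log2 difference 0.76 ± 0.24, adjusted p = 0.65, limma). Its relative Lrit1, the most abundant of the list, averaged 59.6 ± 8.87 FPKM in knockout and 45.4 ± 7.74 FPKM in control, with overlapping groups. Elfn2 averaged 2.47 ± 0.46 FPKM in knockout and 4.16 ± 1.47 FPKM in control (adjusted p = 0.90, limma).

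Among paralogs of the 10 genes, 4 of 22 were tested, and none passed. Ctbp1 is given above, and at a mean of 3.42 FPKM in knockout and 5.54 FPKM in control it was well below Ctbp2. Cacna2d2, a second alpha2delta gene, averaged 4.32 ± 0.85 FPKM in knockout and 6.07 ± 2.30 FPKM in control, below Cacna2d4 in every library. Cabp5, a calcium-binding protein gene known from rod and cone bipolar cells, averaged 9.35 ± 0.95 FPKM in knockout and 10.2 ± 5.61 FPKM in control, far below Cabp4. Some paralogs stand in more than 1 list.

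**Figure D4:**
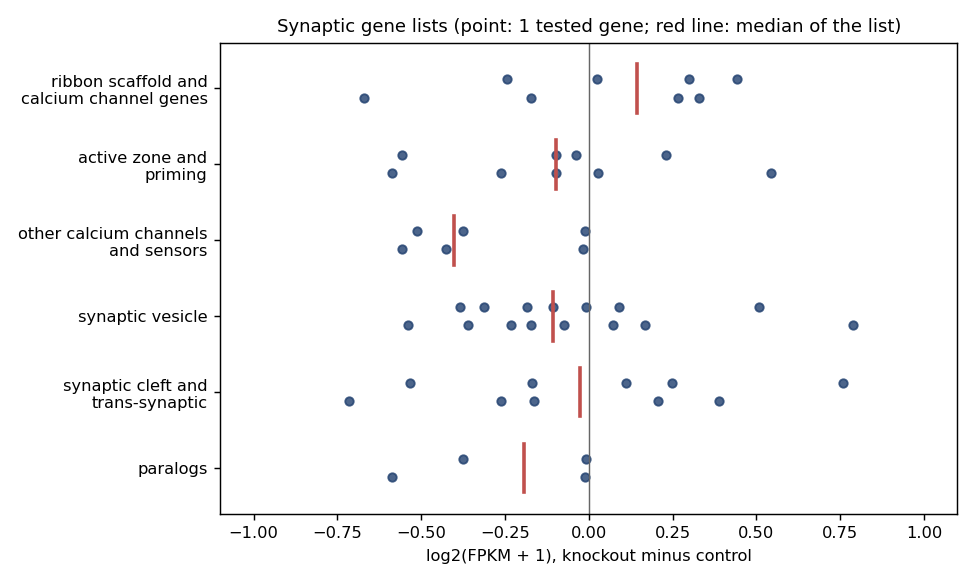
Log2(FPKM + 1) difference, knockout minus control (horizontal axis), of each tested gene (points) of the ribbon and calcium channel genes and of the 5 other lists (rows), with each list's median as a red line. No gene shown passed the test, and the medians run from -0.40 to 0.14.

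Profiles over the 6 libraries were compared by the root-mean-square difference of log2 values centred on their mean. Among the 8 genes Pclo and Rims2 were each other's nearest, at 0.14, and Ctbp2 and Cacna2d4 likewise at 0.15. Bsn was nearest to Rims2 (0.21), Cabp4 to Bsn (0.27), Slc17a7 to Ctbp2 (0.36) and Syp to Slc17a7 (0.40). Of all tested genes at a similar level, Plxna2 and March1 were nearest to Pclo, and Fmn1 and Col4a3bp to Rims2. Cadm3 and Pdzd8 were nearest to Ctbp2, Zc3h13 and Rmnd1 to Bsn, and Atp5j and Slc25a4 to Cabp4. Grina and Lbhd1 were nearest to Slc17a7, at 0.12 and 0.13, and Eno2 and Pabpc1 to Syp, at 0.20 and 0.26. These are the closest of 273 to 7247 candidates per gene, measured in the same 6 libraries, and are given as a description only.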

How the data were processed

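Poly(A) RNA of sorted cones was sequenced as strand-directional paired-end libraries, per the labels' protocols. FPKM were deposited by the authors as a single table of 6 libraries. Tools in the submitters' processing notes are Cufflinks 2.2.1, TopHat2 2.1.0, DESeq2 and HTSeq, with the build mm10 and no roles, and no source used here states whether counting used strand. This table lists 9720 protein-coding genes, each of them above 1 FPKM in at least 1 library, with 0.1 FPKM as the lowest value. Read depth is unknown, so no counting interval is given.

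Genotype labels gave the groups, and titles gave the replicate numbers. GENCODE vM21 (GRCm38) held 9702 of the gene IDs, and 15 symbols stored as numbers were restored. Values were transformed as log2(FPKM + 1), a scale that understates changes of low genes. Genes averaging 1 FPKM or more were kept (8627 tested, 1093 below). Limma 3.58.1 in R 4.3.3 (variance trend, two-sided) was adjusted by Benjamini-Hochberg across the tested genes, with 0.05 as threshold, and the fit was tested on simulated data. Of simulated log2 shifts of 1, 48% passed in the right direction. For shifts of 1.5, 2 and 3 the share was 70%, 90% and 98%, and 10 unshifted genes also passed. Smaller shifts were not simulated. Tables and figures used matplotlib 3.10.9, numpy 2.4.6 and pandas 2.3.3 in Python 3.11.15. Promoters are RefSeq windows (GRCm38.p6).

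The genes and lists were chosen with earlier results of these data known. The rule for named genes takes the measured genes of the set, Cplx3, Arntl, the 2 genes of smallest p and the most abundant gene of each list, the leading markers, and the nearest profiles within a factor of 4 in mean level. The profiles nearest to Cacna2d4 among all genes are not reported here. Alternatives covered the pseudocount, filter, scaling, variance model, weights, covariate, replicate number and each library left out. The correction for GC content and length was chosen after seeing the data.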

Additional observations from a re-analysis of the deposited data

How the results depend on the processing

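None of the 8 genes passed in any of 18 alternatives, where the lowest adjusted p was 0.43 (limma). Signs turned for Cacna2d4 and Slc17a7. The filters, the variance model and the replicate block leave an estimate as it is by construction. The number of genes called over the whole table was 9 as reported, 23 with array weights, and 6 to 13 when each library was left out. Cacna2d4 turned to -0.0017 with quantile normalization and ran from -0.0791 to 0.0771 with each library left out. That range was -0.43 to 0.16 for Slc17a7, -1.19 to -0.23 for Syp, 0.06 to 0.69 for Cabp4, -0.36 to -0.13 for Ctbp2, 0.14 to 0.44 for Bsn, 0.21 to 0.40 for Pclo and 0.22 to 0.30 for Rims2. Of the other named genes, Unc119 turned to 0.102 and Arntl to -0.0316 with the GC and length correction, and Arntl to -0.0474 with the rod covariate. Calm2 turned to 0.0049 and Cabp5 to 0.0216 with libraries scaled to an equal sum. Cabp5 also turned to 0.0073 with median-ratio scaling, 0.0132 with quantile normalization and 0.0603 with array weights. With each library left out, the ranges were -0.30 to 0.0335 for Unc119, -0.25 to 0.11 for Calm2, -0.23 to 0.37 for Cabp5 and -0.0587 to 0.17 for Arntl. The log2 difference of Bsn per Pclo was 0.01, turned to -0.0292 on the log2(FPKM + 1) scale and ran from -0.23 to 0.17 with libraries left out. Rims2 per Bsn ran from -0.24 to 0.0878. Ctbp2 per Bsn ran from -0.78 to -0.39 and Slc17a7 per Syp from 0.34 to 0.77. The causes were not tested.

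The labels do not say whether the replicate numbers pair the samples. Deviations of same-numbered libraries from their group means correlated across genes at -0.12, -0.09 and -0.03. These values cannot settle the pairing, because deviations within a group of 3 are tied to each other through their mean. With the replicate number as a replicate block, 6 genes passed and none of the 8. Bsn has no value under the filter of 5 FPKM. Depth is unknown, so precision rests on the spread between 3 libraries per group and, in limma, on variance shared across genes. For Syp this leaves an interval of the log2 difference from -1.63 to 0.28.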
